A study of Mus musculus with 5 samples.

Results

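The 8 genes described here, Fkbp5, Tsc22d3, Zbtb16, Sgk1, Igfbp1, Txnip, Arrdc3 and Cdkn1a, respond to glucocorticoid hormone, to fasting or to both in many tissues. They are 8 of the 22059 genes that the arrays measured with a probe set annotated to exactly 1 gene symbol. A gene with several such probe sets is represented by the one of highest average signal. The genes were chosen by name, with their differences between these same arrays already known from an earlier analysis, so their own differences are given as a description and support nothing further.

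RNA was hybridised to 5 Affymetrix mouse gene arrays, 3 labelled LRRK2-GS and 2 labelled LRRK2-WT. The labels give cortical primary astrocytes, the star-shaped support cells of the brain, taken from 1-day-old FVB mice heterozygous for a transgene of LRRK2, a kinase linked to Parkinson's disease. LRRK2-GS cells carried its G2019S mutant form and LRRK2-WT cells its wild type form, so neither genotype is free of added LRRK2. No source used here gives the promoter of the transgenes, and nothing states that arrays of 1 genotype came from separate cultures, so that the spread between them may be technical. Every array is labelled as treated with tunicamycin at 0.2 μg/ml for 3 h, while the text of the study gives another time. Tunicamycin stops sugar chains from being added to new proteins, and unfolded proteins then build up in the endoplasmic reticulum (ER). No untreated array was analysed here, and the comparison therefore asks how the genotypes differ under stress, not how the genes respond to tunicamycin, to hormone or to fasting.

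As background, glucocorticoids enter the cell and bind the glucocorticoid receptor, which is held ready by the HSP90 chaperone machinery, moves to the nucleus and binds a palindromic DNA element. Fkbp5, Tsc22d3, Zbtb16 and Sgk1 are widely used readouts of that receptor. Insulin and fasting act in part through FOXO transcription factors, which insulin signalling keeps out of the nucleus and which drive Igfbp1 in the fasted liver. Txnip and Arrdc3 encode alpha-arrestins, and Txnip also follows glucose through the factors ChREBP and MondoA. Cdkn1a encodes the cell cycle inhibitor p21, a target of p53 that other stress pathways also induce.

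The sequences before the start sites of 3 of these genes are printed because their letters match DNA elements known to bind the receptor or FOXO factors. A match is a description and was not tested for binding here. RefSeq promoter windows on the mouse build GRCm38.p6, each running from 250 bases before to 50 bases after a start site (300 bases), were found for 7 of the 8 genes, with 17 windows among them. Zbtb16 was not among them. The 250 bases before the start are shown, and capitals mark the matched element, which is the full glucocorticoid element in Sgk1, the insulin response core in Igfbp1, and in Txnip the relaxed glucocorticoid element followed by the FOXO motif.
Sgk1, chr10:21993640-21993889, plus strand: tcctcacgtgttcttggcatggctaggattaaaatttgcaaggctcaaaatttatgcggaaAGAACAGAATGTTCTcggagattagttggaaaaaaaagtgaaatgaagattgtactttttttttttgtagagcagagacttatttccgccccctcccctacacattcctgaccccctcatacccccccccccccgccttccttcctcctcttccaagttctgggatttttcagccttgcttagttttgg
Igfbp1, chr11:7197537-7197786, plus strand: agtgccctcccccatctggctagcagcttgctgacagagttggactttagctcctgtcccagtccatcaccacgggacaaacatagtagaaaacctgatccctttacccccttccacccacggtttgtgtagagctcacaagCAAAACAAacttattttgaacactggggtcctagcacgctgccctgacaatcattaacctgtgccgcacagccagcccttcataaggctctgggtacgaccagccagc
Txnip, chr3:96557707-96557956, plus strand: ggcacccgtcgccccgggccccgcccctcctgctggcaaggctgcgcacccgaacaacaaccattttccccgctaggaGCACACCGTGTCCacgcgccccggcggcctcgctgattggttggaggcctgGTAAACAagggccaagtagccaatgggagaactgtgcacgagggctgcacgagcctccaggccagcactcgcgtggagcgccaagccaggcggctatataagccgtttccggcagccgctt
Motifs were searched on both strands in 32851 mouse windows, and positions are counted back from -1, the last base before the start. The full palindromic element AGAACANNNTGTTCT stood in 3 of all windows (0.00913%), 1 of them being this start of Sgk1, at -189 to -175. Sgk1 has 6 annotated starts, and the other 5 windows did not hold it. The relaxed form GNACANNNTGTNC was in 0.475% of all windows, in Sgk1 within the full element and in Txnip at -172 to -160. The receptor half-site TGTTCT was in 19.0% of all windows, among them windows of Sgk1 and a window of Tsc22d3 at -185 to -180. The FOXO motif GTAAACA was in 3.65% of all windows and in Txnip at -121 to -115. The insulin response core CAAAACAA was in 2.51% of all windows and in Igfbp1 at -108 to -101. The E-box CACGTG was in 7.15% of all windows, with matches in Sgk1 and in Fkbp5 at -169 to -164. A window without a match says only that these letters are not in it.

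Values are log2 expression values as deposited, so that 1 unit is a doubling, and differences are LRRK2-GS minus LRRK2-WT. Each of the 23396 probe sets with 1 symbol was tested with limma, and a probe set was called at a Benjamini-Hochberg adjusted p no higher than 0.05 together with a change over 1.5-fold. No probe set was called (0%), although 489 had an unadjusted limma p below 0.05, including 58 that changed over 1.5-fold. The methods' t-test called 0 as well, with 33 past both thresholds before adjustment. That test left 1 probe set at an adjusted p of at most 0.05, which changed by less than 1.5-fold. The smallest limma adjusted p, 0.207, was reached by Xist, a sex-linked gene described below. Signal counted as background up to 3.39, the level that bounds 95% of the 1107 probe sets of olfactory receptors, and 12649 tested probe sets lay above it. The arrays were alike in scale, with medians of 3.26 to 3.28 and Pearson's r of 0.986 to 0.993 between them across probe sets.

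Markers of another cell type than the labelled one were present. Hepatocyte markers lay above background for 12 of 12 genes, with Alb (albumin) at 12.62, 12.55 and 12.66 in LRRK2-GS and 12.62 and 12.69 in LRRK2-WT. Their summed signal, on a log2 scale, was 15.14, 15.15 and 15.37 in LRRK2-GS and 15.35 and 15.37 in LRRK2-WT. Of 14 astrocyte markers 10 lay above background, among them Gfap, which averaged 4.16 in LRRK2-GS and 4.05 in LRRK2-WT, and Aldh1l1, which averaged 7.71 in LRRK2-GS and 7.88 in LRRK2-WT. The other 4, Aqp4, S100b, Slc1a3 and Gjb6, did not, and Aqp4 stood at 2.68, 2.92 and 2.68 in LRRK2-GS and 2.67 and 2.83 in LRRK2-WT. Besides Aldh1l1, the highest of the 14 were Slc4a4, which averaged 7.93 in LRRK2-GS and 8.08 in LRRK2-WT, and Glul, at 7.15 and 7.69. No other astrocyte marker averaged above 4.98, the level of Ntsr2 in LRRK2-GS. The background level also passed the neuron marker Map2 and the oligodendrocyte marker Mog, which held 3.59 and 3.41 on all 5 arrays. Lying above it therefore does not show that a cell type was present. The summed astrocyte marker signal was 9.48 to 9.74 in LRRK2-GS and 9.93 and 9.72 in LRRK2-WT. Markers of other cells were also measured. Summed endothelial signal was 8.87, 8.66 and 8.74 in LRRK2-GS and 9.13 and 8.84 in LRRK2-WT. Summed fibroblast and stellate cell signal was 9.48, 9.56 and 9.41 in LRRK2-GS and 9.49 and 9.46 in LRRK2-WT. Its highest gene was Dcn, averaging 9.11 in LRRK2-GS and 9.07 in LRRK2-WT, followed by Lrat at 5.50 and 5.71. Summed microglia and Kupffer cell signal was 8.10 to 8.30 in LRRK2-GS and 8.28 and 8.22 in LRRK2-WT, with Clec4f highest at 7.18 and 7.22 on average. Oligodendrocyte and neuron markers summed to 6.67 to 6.76 in LRRK2-GS and 6.86 and 6.75 in LRRK2-WT. Lymphocyte and neutrophil markers summed to 5.67 to 6.01 and to 5.76 and 5.74. The part of cell makeup in the results below was not tested. The genotypes were also apart in sex-linked genes. Xist, expressed from the inactive X chromosome, was at 2.41, 2.65 and 2.64 in LRRK2-GS and at 8.49 and 8.09 in LRRK2-WT, whereas Y-linked Eif2s3y was at 6.13, 6.68 and 6.42 in LRRK2-GS and at 2.03 and 2.31 in LRRK2-WT. Genotype and the sex of the source therefore cannot be told apart in any result below. In such bulk RNA, fewer cells of a type and less RNA per cell cannot be told apart either.

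All 8 genes were above background on their mean signal, and none was called, with limma adjusted p of 0.826 to 1.0 and only Fkbp5 below 0.05 before adjustment. LRRK2-GS was higher for 2 of them and lower for 6, with a median difference of -0.16, against a median of 0 over all tested probe sets. In 3 of the 8 (Fkbp5, Txnip and Arrdc3) all LRRK2-GS values were under both LRRK2-WT values, which held for 3.74% of all tested probe sets. In none were all LRRK2-GS values over both LRRK2-WT values, which held for 3.76% of all. Differences over 1.5-fold were seen upward in 1 gene (Cdkn1a), where the background was 0.457%, and downward in 2 genes (Txnip and Arrdc3), where it was 0.500%. Because the genes were picked with these differences known, nothing is read from their counts against those shares.

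**Figure D1:**
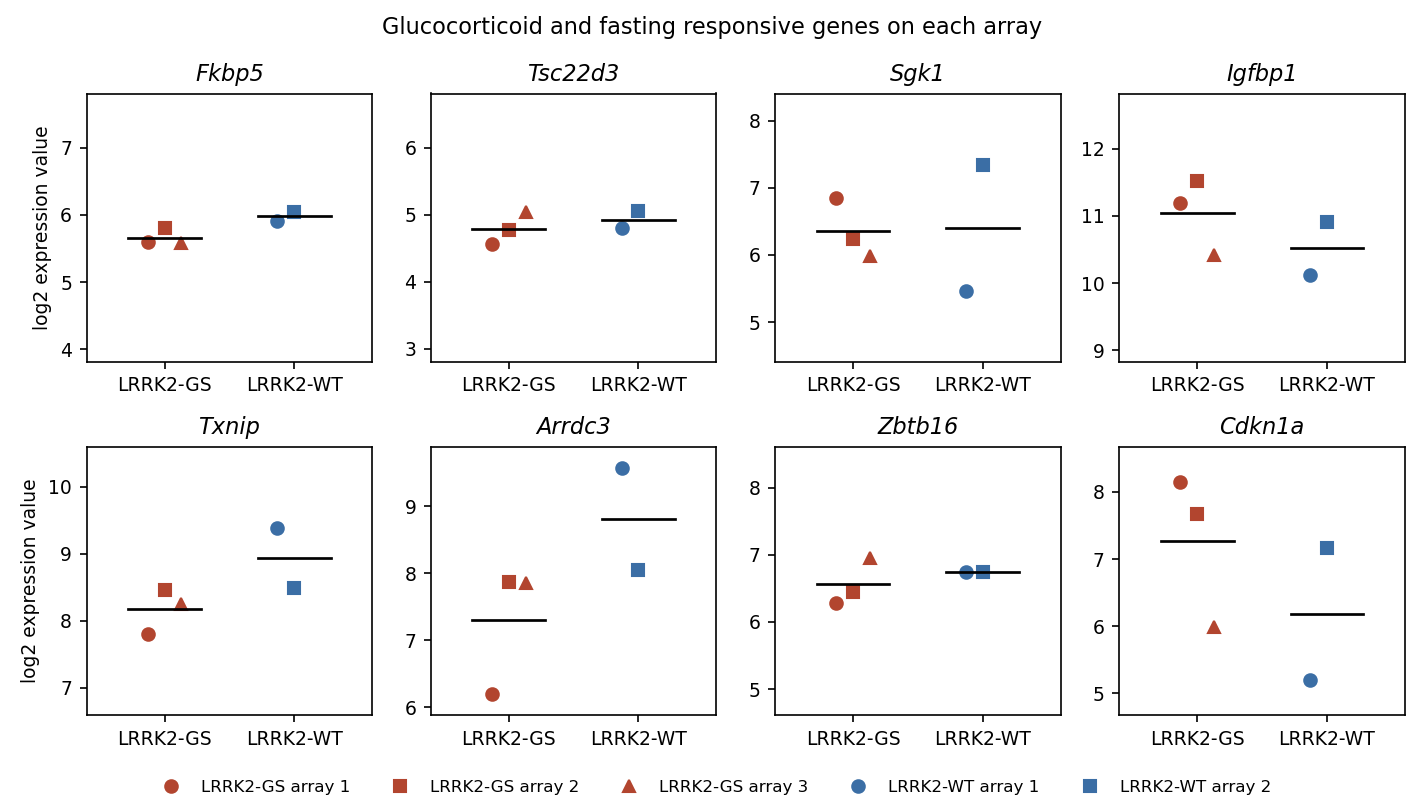
Log2 expression value (y axis, a common span in each panel) of each gene on every array, LRRK2-GS left and LRRK2-WT right. Points are arrays and bars are means of 3 LRRK2-GS and 2 LRRK2-WT arrays. Only Fkbp5, Txnip and Arrdc3 have all LRRK2-GS points below both LRRK2-WT points, and the points of Arrdc3, Cdkn1a and Sgk1 spread widely within a genotype.

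The glucocorticoid receptor readouts Fkbp5, Tsc22d3 and Zbtb16 were each slightly lower on average in LRRK2-GS, and only Fkbp5 stood apart from the spread between arrays. Fkbp5 (probe set 17342868, chromosome 17) encodes an HSP90 co-chaperone that lowers the hormone affinity of the receptor and is itself induced by it. Its values were 5.59, 5.80 and 5.58 in LRRK2-GS and 5.91 and 6.04 in LRRK2-WT. The genotypes did not overlap, and this was the only one of the 8 genes whose difference exceeded the range within each genotype. The means were 5.66 ± 0.13 in LRRK2-GS (SD, n = 3) and 5.98 ± 0.10 in LRRK2-WT (SD, n = 2), a difference of -0.32 with a 95% interval of -0.61 to -0.04. The limma adjusted p over all probe sets was 0.826. With any 1 array left out the difference stayed between -0.39 and -0.25, a change of less than 1.5-fold in each case.

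Tsc22d3 (probe set 17544939, X chromosome) encodes GILZ, a protein through which glucocorticoids dampen inflammation. It was at 4.56, 4.77 and 5.05 in LRRK2-GS and at 4.80 and 5.06 in LRRK2-WT, with the values of the genotypes interleaved. The means were 4.79 ± 0.25 in LRRK2-GS and 4.93 ± 0.18 in LRRK2-WT, and the interval of the difference ran from -0.68 to 0.42 around -0.13. Zbtb16 (probe set 17526707, chromosome 9) encodes PLZF, a zinc-finger repressor. Its values were 6.28, 6.45 and 6.95 in LRRK2-GS and 6.74 on both LRRK2-WT arrays. LRRK2-GS arrays thus lay on both sides of LRRK2-WT, and the difference of -0.19 (-0.87 to 0.50) shrank to -0.04 without LRRK2-GS array 1. Such equal values were common in the table, and 18203 of the tested probe sets had at least 1 pair of arrays with the same value.

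Sgk1 and Igfbp1, which respond to both hormone and feeding state, differed more within a genotype than between genotypes. Sgk1 (probe set 17232055, chromosome 10) is the serum and glucocorticoid regulated kinase, and one of its starts carries the full receptor element printed above. It was at 6.85, 6.24 and 5.99 in LRRK2-GS and at 5.47 and 7.34 in LRRK2-WT. The LRRK2-WT arrays were thus the lowest and the highest of the 5, and all LRRK2-GS arrays lay between them. The means were 6.36 ± 0.44 in LRRK2-GS and 6.41 ± 1.33 in LRRK2-WT, a difference of -0.05 with an interval of -2.10 to 2.00. Its sign depended on single arrays, since it was -0.99 when LRRK2-WT array 1 was left out and 0.89 when LRRK2-WT array 2 was. Leaving out LRRK2-GS array 2 or 3 also turned it, to 0.01 and 0.14.

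Igfbp1 (probe set 17247208, chromosome 11) encodes a protein that the liver secretes and that binds insulin-like growth factors in the blood. Fasting raises it and insulin suppresses it. Its values were 11.20, 11.52 and 10.42 in LRRK2-GS and 10.13 and 10.91 in LRRK2-WT. LRRK2-GS arrays 1 and 2 were above both LRRK2-WT arrays and LRRK2-GS array 3 lay between them. The means were 11.05 ± 0.57 in LRRK2-GS and 10.52 ± 0.55 in LRRK2-WT, a difference of 0.53 (-0.83 to 1.89). The difference came to 0.14 when LRRK2-WT array 1 was left out and to 0.92 when LRRK2-WT array 2 was.

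The alpha-arrestins Txnip and Arrdc3 were lower on every LRRK2-GS array, by 1.70-fold and 2.82-fold on average, with wide intervals that included no change. Txnip (probe set 17400599, chromosome 3) binds thioredoxin and limits glucose uptake. It was at 7.81, 8.46 and 8.25 in LRRK2-GS and at 9.38 and 8.49 in LRRK2-WT. The genotypes only just failed to overlap, since LRRK2-GS array 2 and LRRK2-WT array 2 were nearly equal. The means were 8.17 ± 0.33 in LRRK2-GS and 8.94 ± 0.63 in LRRK2-WT, a difference of -0.77 (-1.86 to 0.33). LRRK2-WT array 1 set much of the size: the difference was -0.32 without it and -1.21 when only LRRK2-WT array 2 was left out.

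Arrdc3 (probe set 17288876, chromosome 13) encodes an adaptor that brings membrane receptors to ubiquitin ligases of the NEDD4 type. Its values were 6.20, 7.87 and 7.86 in LRRK2-GS and 9.57 and 8.04 in LRRK2-WT. The 5 arrays covered a 10.3-fold range, with LRRK2-GS array 1 far below the other LRRK2-GS arrays and LRRK2-WT array 1 far above LRRK2-WT array 2. Between the remaining arrays the values were close, with 7.87 and 7.86 in LRRK2-GS and 8.04 in LRRK2-WT. The means were 7.31 ± 0.96 in LRRK2-GS and 8.81 ± 1.08 in LRRK2-WT, a difference of -1.50 (-3.92 to 0.93). It came to -0.73 when LRRK2-WT array 1 was left out, -2.26 when LRRK2-WT array 2 was and -0.94 when LRRK2-GS array 1 was. Txnip and Arrdc3 ranked the 5 arrays identically, LRRK2-GS array 1 lowest, then LRRK2-GS arrays 3 and 2, and LRRK2-WT arrays 2 and 1 highest.

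Arrdc4, the paralogue that shares ChREBP and MondoA control with Txnip, was at 4.90, 5.19 and 5.45 in LRRK2-GS and at 6.15 and 5.69 in LRRK2-WT. It too was lower on every LRRK2-GS array, by 0.74 on average (difference -0.74, interval -1.44 to -0.03), and it stayed between -0.97 and -0.51 with any 1 array left out. Its limma adjusted p over all probe sets did not pass, as for all others. The other family members above background did not follow, with differences of 0.35 for Arrdc1 and 0.02 for Arrdc2. Arrdc5, below background, differed by -0.01, so that apart from the picked Txnip and Arrdc3 the family split evenly by sign.

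Cdkn1a (probe set 17335467, chromosome 17) had the largest upward difference of the 8 genes, 2.12-fold, and also the widest spread. The p21 protein it encodes blocks cyclin-dependent kinases and so stops the cell cycle. It was at 8.15, 7.68 and 5.98 in LRRK2-GS and at 5.20 and 7.17 in LRRK2-WT. LRRK2-GS arrays 1 and 2 lay above both LRRK2-WT arrays, and LRRK2-GS array 3 lay between them, the same order of arrays within and across genotypes as for Igfbp1 except that LRRK2-GS arrays 1 and 2 changed places. The means were 7.27 ± 1.14 in LRRK2-GS and 6.19 ± 1.39 in LRRK2-WT, a difference of 1.08 (-1.89 to 4.06). Leaving out LRRK2-WT array 1 brought it to 0.10, leaving out LRRK2-WT array 2 to 2.07 and leaving out LRRK2-GS array 3 to 1.73.

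**Figure D2:**
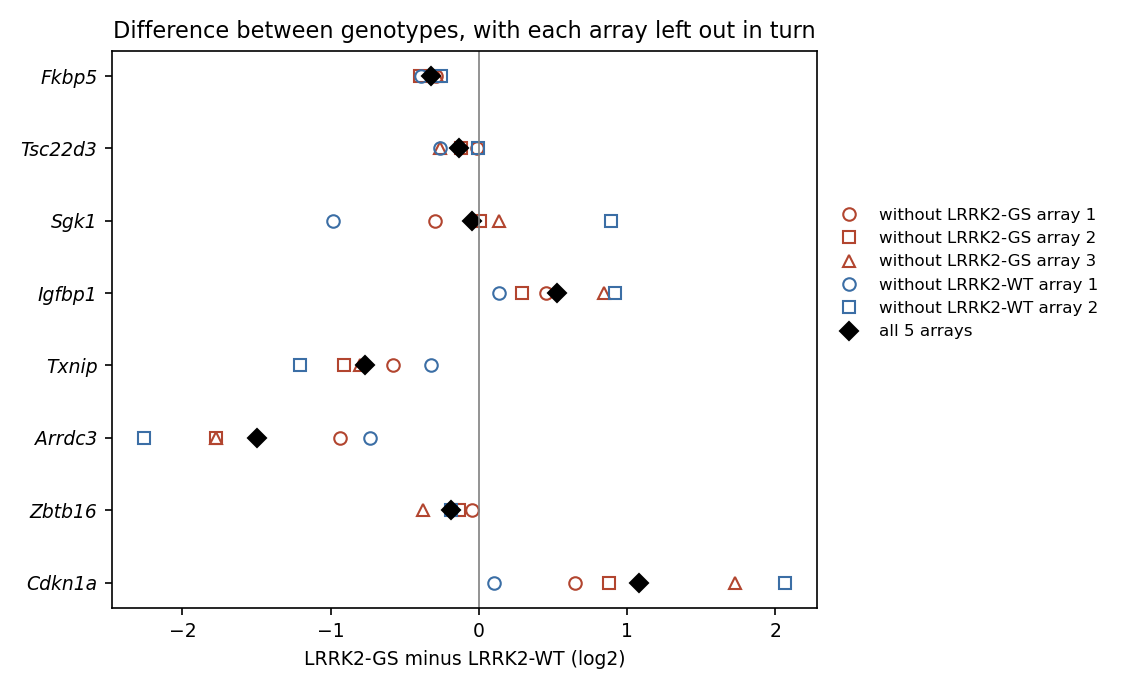
Difference between genotypes (x axis, LRRK2-GS minus LRRK2-WT, log2) for each gene, with all 5 arrays (black diamonds) and with each array left out in turn (open symbols). Fkbp5 stays between -0.39 and -0.25, whereas Sgk1 moves from one side of 0 to the other and Cdkn1a spans 0.10 to 2.07.

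The 8 genes varied more between arrays of 1 genotype than most genes did. The SD within a genotype, pooled over both, was 0.12 for Fkbp5, 0.23 for Tsc22d3, 0.28 for Zbtb16, 0.45 for Txnip and 0.56 for Igfbp1. It was 0.85 for Sgk1, 1.00 for Arrdc3 and 1.23 for Cdkn1a. The median over tested probe sets above background was 0.116, and all 8 genes exceeded it. Ranks were taken among all 23396 tested probe sets, including those at background. Fkbp5 stood at the 55.8th percentile, Tsc22d3 at the 84.2nd and Zbtb16 at the 90.9th. Txnip, Igfbp1, Sgk1, Arrdc3 and Cdkn1a stood between the 97.6th and the 99.9th. These ranks are a description, as the genes were picked from these same arrays. LRRK2-GS array 1 was the lowest array for 4 of the 8 genes and LRRK2-WT array 1 for 3, and LRRK2-WT array 2 was the highest for 3.

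**Figure D3:**
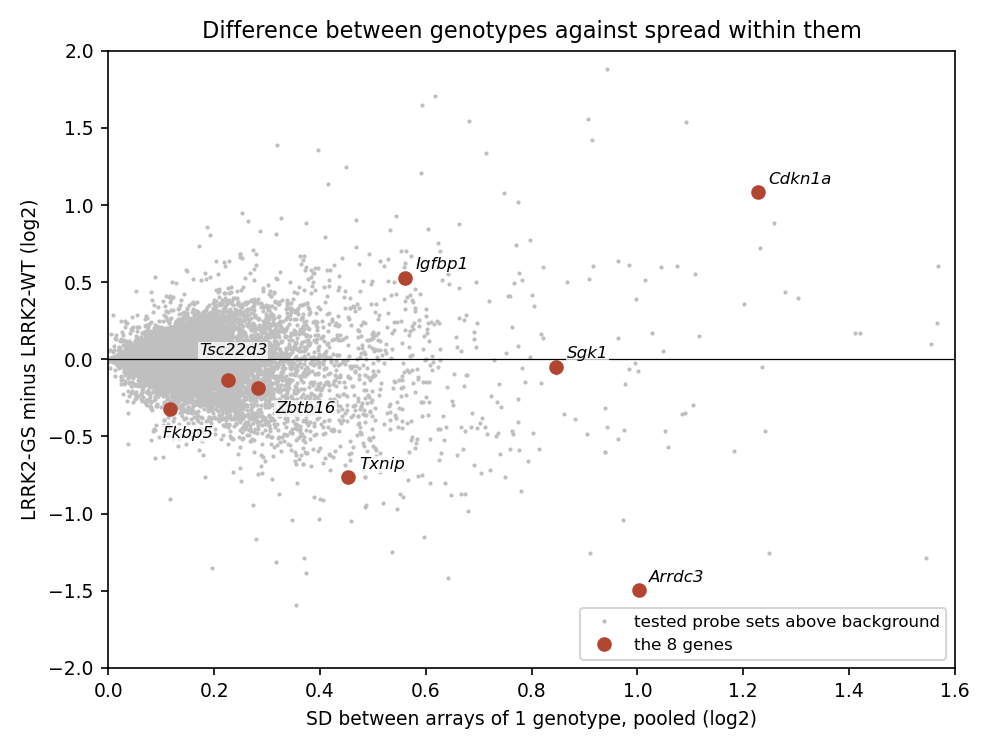
Difference between genotypes (y axis, LRRK2-GS minus LRRK2-WT, log2) against the pooled SD between arrays of 1 genotype (x axis, log2) for tested probe sets above background (grey) and the 8 genes (red). Of 12649 probe sets, 12 lie outside the axes. Fkbp5 has an SD of 0.12 near the median, and Sgk1, Arrdc3 and Cdkn1a lie at 0.85 to 1.23.

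The receptor and the genes that control it were compared next, and none was called. Nr3c1, the glucocorticoid receptor, was at 6.68, 6.65 and 6.64 in LRRK2-GS and at 6.78 and 6.68 in LRRK2-WT, a difference of -0.07 (-0.18 to 0.04). Hsd11b1, the enzyme that regenerates active hormone inside cells, was at 7.69, 7.83 and 8.25 in LRRK2-GS and at 8.01 and 7.90 in LRRK2-WT, a difference of -0.03 (-0.62 to 0.55). Of 11 measured genes of this list 3 were higher, 8 lower and 0 below 0.05 before adjustment, with a median of -0.01. The mineralocorticoid receptor Nr3c2 differed by -0.00, the chaperones Hsp90aa1 and Hspa8 by 0.14 and 0.01, and the co-chaperones Fkbp4, Stip1 and Ptges3 by 0.07, -0.01 and -0.38. Ptges3 (p23) thus had the largest absolute difference of this list, its genotypes overlapped, and it came to -0.19 without LRRK2-WT array 2. The coactivator Ncoa1 differed by -0.13 and Ncoa2 by -0.16. Ncoa2 was the only one of the list lower on every LRRK2-GS array, as 3.74% of all tested probe sets were.

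Other genes that the receptor is known to induce did not share 1 direction. Of the 28 measured, 9 were higher, 16 lower and 3 equal in LRRK2-GS, with a median of -0.03, none called and 2 (Il6ra and Anxa1) below 0.05 before adjustment. Il6ra, the interleukin 6 receptor, was at 6.59, 6.73 and 6.98 in LRRK2-GS and at 7.29 and 7.13 in LRRK2-WT, a difference of -0.45 that stayed between -0.55 and -0.36 with any 1 array left out. Lpin1, a phosphatidate phosphatase of fat metabolism, differed by -0.38 (-0.55 to -0.20 with 1 array left out), and Anxa1, an anti-inflammatory annexin, by -0.31. These 3 were the targets lower on every LRRK2-GS array, which held for 3.74% of all tested probe sets, and Anxa1 is named for that after its values were seen. None of the targets was higher on every LRRK2-GS array, which held for 3.76% of all. The list was written with earlier results of these data known, so nothing is read from its counts. The feedback inhibitors Nfkbia and Zfp36 were each higher by 0.37 on average, with overlapping genotypes. Nfkbia came to 0.16 without LRRK2-WT array 1 and Zfp36 to 0.13 without LRRK2-WT array 2. Errfi1, an inhibitor of the EGF receptor, was at 10.20, 10.34 and 10.20 in LRRK2-GS and at 9.05 and 10.20 in LRRK2-WT, so that its difference of 0.62 came to 0.04 without LRRK2-WT array 1. The metallothionein Mt1 was at 9.30, 8.99 and 6.53 in LRRK2-GS and at 8.70 and 8.77 in LRRK2-WT, and its difference of -0.46 turned to 0.41 without LRRK2-GS array 3.

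Genes driven by FOXO factors or by fasting, counted together with the FOXO factors themselves, were lower more often than higher. Of 29 measured, 7 were higher, 21 lower and 1 equal in LRRK2-GS, with a median of -0.07. None was called and 0 lay below 0.05 before adjustment. Over all tested probe sets 11408 were higher, 9995 lower and 1993 equal. The list was written with earlier results of these data known, so nothing is read from its split against that one. In the list, the number lower was 18 to 24 with each array left out in turn, and the number higher fell to 3 without LRRK2-GS array 2. Ppargc1a, the coactivator of mitochondrial and gluconeogenic genes, was at 3.88, 5.27 and 5.33 in LRRK2-GS and at 5.64 and 5.98 in LRRK2-WT. Irs2, an adaptor of the insulin receptor, was at 4.95, 5.51 and 5.68 in LRRK2-GS and at 6.55 and 5.99 in LRRK2-WT. Both were lower on every LRRK2-GS array, with differences of -0.99 (-2.63 to 0.66) for Ppargc1a and -0.89 (-1.83 to 0.05) for Irs2, as were Lpin1 and Insr, the insulin receptor itself (-0.15). Being lower on every LRRK2-GS array held for 3.74% of all tested probe sets, and nothing is read from its count in this list. Without LRRK2-GS array 1 the difference of Ppargc1a came to -0.52. Sesn3, a stress-induced sestrin, differed by -0.97 with overlapping genotypes and -0.60 without LRRK2-WT array 1, and the CBP-binding Cited2 by -0.38. The difference of Sesn1, -0.41, rested on LRRK2-WT array 1 and came to -0.01 without it. Acot1, an acyl-CoA thioesterase, was higher by 0.72 on average, a difference that turned to -0.08 without LRRK2-GS array 2. The factors themselves, which are part of the counts, differed by -0.18 (Foxo1), -0.16 (Foxo3), -0.04 (Foxo4) and -0.04 (Foxo6). Some genes, Lpin1 among them, are counted both here and among the receptor targets above.

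Among partners and targets of ChREBP and MondoA, the glucose-sensing pair that acts on Txnip and Arrdc4, 4 of 14 were higher, 10 were lower and the median was -0.09, with none called and 1 (Arrdc4) below 0.05 before adjustment. Mlxipl, which encodes ChREBP, differed by -0.37 (-1.49 to 0.74), or by -0.19 without LRRK2-GS array 2. The lipogenic enzymes Elovl6 and Acaca differed by -0.38 and -0.37, or by -0.14 and -0.18 without LRRK2-WT array 1, and pyruvate kinase Pklr, lower on every LRRK2-GS array, by -0.34. Without LRRK2-GS array 2 the difference of Pklr came to -0.05. The fructose kinase Khk was higher by 0.26 on average, which turned to -0.01 without LRRK2-GS array 3. Gpd1, glycerol phosphate dehydrogenase, was the only gene of the list higher on every LRRK2-GS array, with a difference of 0.25, and is named for that after its values were seen. Over all tested probe sets 3.76% were higher on every LRRK2-GS array and 3.74% lower. Nothing is read from the counts of this list, which was written with earlier results known.

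Other p53 targets were higher in LRRK2-GS for 16 of 20 measured, lower for 3 and equal for 1, with a median of 0.08, none called and 1 (Phlda3) below 0.05 before adjustment. That split rested on LRRK2-GS array 2, without which 9 were higher and 10 lower and the median was -0.02. Leaving out LRRK2-WT array 1 gave 13 higher and 6 lower. Over all tested probe sets 11408 were higher, 9995 lower and 1993 equal. The list of p53 targets was also written with earlier results of these data known, so nothing is read from its counts. Btg2, an antiproliferative gene, was at 6.20, 7.11 and 5.77 in LRRK2-GS and at 5.72 and 5.60 in LRRK2-WT, and its difference of 0.70 (-0.66 to 2.07) stayed between 0.33 and 1.00 with any 1 array left out. Btg2 and Phlda3, a repressor of AKT (0.17), were the targets higher on every LRRK2-GS array, which held for 3.76% of all tested probe sets. None was lower on every LRRK2-GS array (3.74% of all). Mdm2, the ubiquitin ligase of p53, differed by 0.29, Zmat3 by 0.17, the death receptor Fas by -0.28 and cyclin G1 (Ccng1) by 0.25, and the last turned to -0.13 without LRRK2-GS array 2. Single arrays also carried much of Mdm2 (0.13 without LRRK2-WT array 1), Zmat3 (0.05 without LRRK2-GS array 2) and Fas (-0.15 without LRRK2-GS array 1).

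**Figure D4:**
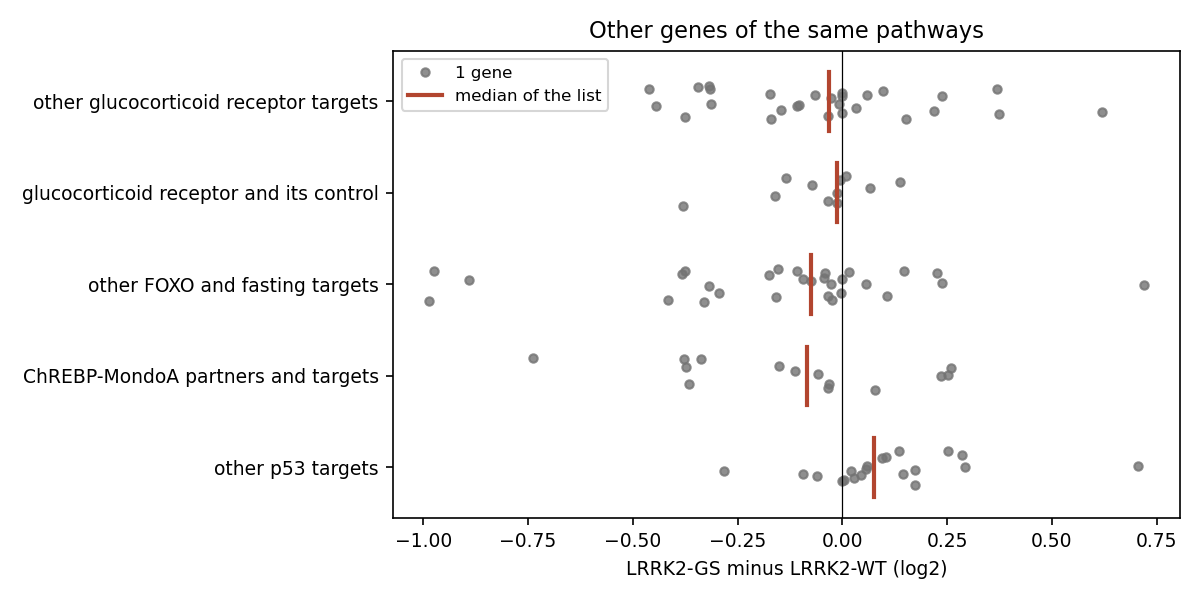
Difference between genotypes (x axis, LRRK2-GS minus LRRK2-WT, log2) for the measured genes of 5 pathway lists (grey points, shifted at random up and down) with the median of each list (red). The medians lie between -0.09 and 0.08, and single genes reach from -0.99 to 0.72.

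Relatives of the 8 genes in the same families were compared in the same way. Of 12 measured FK506 binding proteins 6 were higher and 6 lower, and Fkbp5 was the only one of them lower on every LRRK2-GS array. The relatives above background differed by 0.09 (Fkbp1a), -0.24 (Fkbp2), -0.04 (Fkbp3), 0.07 (Fkbp4), 0.07 (Fkbp8), -0.14 (Fkbp9), 0.26 (Fkbp11), 0.05 (Fkbp14) and -0.12 (Fkbp15). None of these relatives was as far from 0 as Fkbp5. Because Fkbp5 was picked with its difference known, nothing is read from that. The TSC22 family stayed near 0, with -0.01 for Tsc22d1, -0.05 for Tsc22d2 and 0.02 for Tsc22d4. The kinases Sgk2 and Sgk3 differed by -0.17 and -0.28, so that 3 of 3 SGK genes were lower on average and none was called. Of the 7 IGF binding proteins 4 were higher and 3 lower, with -0.40 for Igfbp2, 0.08 for Igfbp3, -0.16 for Igfbp4, 0.28 for Igfbp5, 0.10 for Igfbp6 and -0.24 for Igfbp7. Igfbp1, also picked with its difference known, had the highest difference of that family, and none of it was called. Relatives of Zbtb16 with the same BTB and zinc-finger domains differed by -0.01 (Zbtb20), 0.03 (Zbtb7a), 0.02 (Zbtb7b), 0.08 (Zbtb7c), 0.02 (Bcl6) and -0.08 (Bcl6b). The CDK inhibitors Cdkn1b, Cdkn2a, Cdkn2b and Cdkn2d differed by 0.06, -0.07, -0.01 and 0.10, and Cdkn1c held 3.75 on all 5 arrays. In each of these relatives the genotypes overlapped.

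Genes of ER stress and of the circadian clock were set beside the 8 genes, array by array. Of 13 measured, 6 were higher and 7 lower in LRRK2-GS, with a median of -0.01 and 0 below 0.05 before adjustment. Ddit3, which encodes the stress factor CHOP, was at 8.47, 8.89 and 7.91 in LRRK2-GS and at 6.36 and 7.81 in LRRK2-WT, higher by 1.34 on average and by 0.62 without LRRK2-WT array 1. Like Sgk1, Igfbp1 and Cdkn1a, it was lowest on LRRK2-WT array 1. The stress factors Atf3 and Atf4 differed by 1.42 and 0.61 and the pseudokinase Trib3 by 0.54, and each of these was lowest on LRRK2-WT array 1 as well. With 1 array left out they came to as little as 0.90 for Atf3 without LRRK2-GS array 2, 0.36 for Atf4 without LRRK2-WT array 1 and 0.31 for Trib3 without LRRK2-GS array 1. Ppp1r15a, a phosphatase subunit that restores translation, was instead lowest on LRRK2-WT array 2, and its difference of 0.74 came to -0.02 without that array. The other stress genes differed by 0.02 (Chac1), -0.09 (Sesn2), -0.12 (Xbp1) and -0.01 (Ern1). The clock repressor Nr1d1 was at 4.43, 5.19 and 6.48 in LRRK2-GS and at 7.00 and 5.82 in LRRK2-WT, a difference of -1.04 that came to -0.45 without LRRK2-WT array 1. It was lowest on LRRK2-GS array 1 and highest on LRRK2-WT array 1, as Txnip and Arrdc3 were. The clock genes Nr1d2 and Dbp differed by -0.35 and -0.46, which turned to 0.29 and 0.42 without LRRK2-WT array 1. Per1 differed by -0.03. None of these was called, and the part of ER stress or clock phase in the values of the 8 genes was not tested.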

How the data were processed

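RNA of 3 LRRK2-GS and 2 LRRK2-WT samples was hybridised to Affymetrix mouse gene arrays. Log2 expression values of 33640 probe sets, exported by the authors through the GeneChip Command Console, were deposited as 1 table. Their background correction and normalization are not given in any source used, so their effect on the values is unknown. The log base and the direction were checked against the ratios that the study lists. Groups came from the sample labels. Exactly 1 symbol was paired with 23396 probe sets (22059 genes), several with 1812 and none with 8432, and 23203 were found by gene ID in the annotation of GRCm38.p6. The members, gene lists and named genes were chosen with earlier results of these data known.

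Deposited values were used without a filter or further normalization. The genotypes were compared in R 4.3.3 with limma 3.58.1 (lmFit and eBayes, default settings, two-sided, no replicate block) and Benjamini-Hochberg adjustment over all 23396 probe sets. The prior degrees of freedom were 0.595, so a gene's error came mostly from its own arrays. The steps were tested on simulated data. Named genes are the 8 members, relatives of a member above background, the receptor and its control genes above background and, per other list, at most the 6 genes above background with the largest absolute difference. Insr, the FOXO factors, Anxa1 and Gpd1 were named in addition. Of the ER stress and clock list every measured gene was named. Alternatives were array weights, a robust trended prior, quantile and cyclic loess normalization, median scaling, a background filter, all probe sets, an average of each gene's probe sets, the methods' t-test, a replicate block and each array left out. The number of arrays limits the precision.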

Additional observations from a re-analysis of the deposited data

How the results depend on the processing

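The 0 called probe sets held with the trended and robust prior, array weights, quantile and cyclic loess normalization, the background filter, all probe sets and the methods' t-test at over 1.5-fold. Leaving out 1 array gave 0 to 28 called probe sets, namely 26 when LRRK2-WT array 1 was left out and 28 when LRRK2-WT array 2 was, where the lone LRRK2-WT array is assumed to vary like LRRK2-GS arrays. None of the 8 genes was called under any of these, and median scaling and the average of a gene's probe sets were run for their differences alone. The number of genes with each LRRK2-GS array below each LRRK2-WT array was 3 to 5 with 1 array left out, an alternative added after the values were seen. Fewer arrays separate more easily, and the share over all probe sets was not taken for them. Nothing is therefore read from these counts. The replicate numbers pair nothing in the labels, with correlations of deviations of -0.126 and 0.088 for arrays of the same number. With the replicate block 0 probe sets were called, and the differences were -0.28 for Fkbp5, -1.77 for Arrdc3 and 1.73 for Cdkn1a. The difference of Sgk1 changed sign, to 0.14 with the replicate block, and ran between -0.99 and 0.89 with 1 array left out (0.01 without LRRK2-GS array 2, 0.14 without LRRK2-GS array 3). The other 7 genes kept their direction under every alternative, but several alternatives could not turn a sign. The prior, the background filter, all probe sets, the t-test and the probe set average left each difference as it was. The replicate block gave the differences found without LRRK2-GS array 3, which has no LRRK2-WT array of its number. Both are therefore the same check. Tsc22d3 came to -0.0044 without LRRK2-WT array 2 and to -0.0163 without LRRK2-GS array 1. With 3 and 2 arrays, the 95% intervals of 7 of the 8 genes included 0, and those of Cdkn1a and Arrdc3 were the widest.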

Other observations

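A second probe set lies on Txnip but is annotated to both Txnip and Gm15441, and was therefore left out of the comparison. Its log2 expression values were 4.23, 4.49 and 3.99 in LRRK2-GS and 4.53 and 4.38 in LRRK2-WT, a difference of -0.22, with the genotypes overlapping. Genes of the lists without a probe set of 1 symbol, such as Pck1 and Ddit4, were not analysed here.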
